A study of Mus musculus with 6 samples.

Results

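The genes described here are 8 genes of MHC class II antigen presentation, H2-Aa, H2-Ab1, H2-Eb1, H2-DMa, Cd74, Ciita, Ifi30 and Ctss, out of 12393 genes measured. They were chosen by name, for their place in the pathway, with earlier results of these data known, and each is read from its brightest probe set, on average over the 6 arrays, among those annotated to that gene alone. The arrays held RNA of CD4-CD8- (double negative, DN) cells from fetal thymus organ culture, in which lobes taken from C57BL/6 fetuses on gestation day 15 were kept for 6 days, to gestation day 21. The medium contained 10 nM TCDD (2,3,7,8-tetrachlorodibenzo-p-dioxin), a persistent ligand of the aryl hydrocarbon receptor (AHR), or the solvent dioxane. Thymocytes were prepared from the lobes themselves, with 1 TCDD array and 1 dioxane array. Emigrants were cells recovered from buffer flushed over the lobes, with 2 TCDD arrays and 2 dioxane arrays. All groups shared the strain, the culture and the magnetic-bead selection against CD4 and CD8, and each RNA came from pooled cells. The dioxane concentration was stated for the thymocytes alone. The labels do not tell whether repeat arrays stem from different cultures, and the p-values cover no more than array-to-array spread, part or all of which may be technical. In the GRCm38.p6 annotation H2-DMa (34119693 to 34139101), H2-Ab1 (34263227 to 34269418), H2-Aa (34282744 to 34287823) and H2-Eb1 (34305867 to 34316674) lie on chromosome 17. Ctss lies on chromosome 3 (95526786 to 95556405), Ifi30 on chromosome 8 (70762773 to 70766663), Ciita on chromosome 16 (10480014 to 10531064) and Cd74 on chromosome 18 (60803849 to 60812652).

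MHC class II molecules are heterodimers of an alpha and a beta chain that show peptides from endosomes to CD4 T cells. The invariant chain, Cd74, occupies the groove during assembly and is trimmed by cathepsin S in the endosome, after which H2-DM exchanges its last fragment for peptide. In the thymus, class II is carried by epithelial cells, dendritic cells, macrophages and B cells, and CD4 thymocytes are selected on it, while mouse T cells are known to carry little or none. Transcription of the chain genes depends on the co-activator Ciita, which is recruited by factors sitting on the X and Y boxes upstream of each gene.

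Upstream sequences are shown because they carry the boxes through which class II genes are known to be controlled. RefSeq promoters (GRCm38.p6) were held for 5 of the 8 genes. Each stretch is the 150 bases before the annotated start, 5′ to 3′ on the gene's strand, and capitals mark matches to 4 motifs searched on both strands. H2-Aa is chr17:34287824-34287973 (minus strand), H2-Eb1 is chr17:34305717-34305866 (plus strand), Ifi30 is chr8:70766664-70766813 (minus strand) and Ctss is chr3:95526636-95526785 (plus strand).
H2-Aa: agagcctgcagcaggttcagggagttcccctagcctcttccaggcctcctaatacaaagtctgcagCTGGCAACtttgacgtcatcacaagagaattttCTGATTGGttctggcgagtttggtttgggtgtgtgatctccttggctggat
H2-Eb1: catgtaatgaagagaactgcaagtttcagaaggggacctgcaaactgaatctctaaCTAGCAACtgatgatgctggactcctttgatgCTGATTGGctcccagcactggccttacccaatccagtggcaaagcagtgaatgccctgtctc
Ifi30: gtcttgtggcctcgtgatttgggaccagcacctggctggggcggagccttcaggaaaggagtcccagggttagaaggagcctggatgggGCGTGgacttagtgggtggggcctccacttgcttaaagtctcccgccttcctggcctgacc
Ctss: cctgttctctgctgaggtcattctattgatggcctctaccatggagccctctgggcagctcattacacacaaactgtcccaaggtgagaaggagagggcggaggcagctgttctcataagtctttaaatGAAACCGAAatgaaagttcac

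H2-Aa and H2-Eb1 both hold an X box core (CTNGCAAC) followed by a Y box (CTGATTGG). In H2-Aa the X box core begins 84 bases and the Y box 51 bases before the start, and in H2-Eb1 they begin 94 and 62 bases before it. The letters of these boxes were settled after these promoters had been read, so which of the genes match was fixed by that choice. Of 32851 mouse promoters, each searched over 250 bases upstream, 2.84% held the X box core and 3.83% the Y box. Ctss holds 1 interferon-response core (GAAANNGAA), 21 bases before its start, a motif found in 7.13% of promoters. Ifi30 holds 1 AHR core (GCGTG), 61 bases before its start, as did 28.2% of promoters. H2-DMa has 2 promoter entries, ending at 34122831 and 34125517 on the plus strand, and none of the 4 motifs was found in either. Both lie inside the H2-DMa locus given above, and the sequence before the start of that locus was not searched. These are matches of letters, not measured binding.

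Values below are the deposited log2 intensities after RMA, a method that corrects background, brings arrays to 1 distribution and summarises probes. Levels of different probe sets are not comparable with each other, so each gene is compared with itself across arrays. The array medians lay between 4.84 and 4.88. Bacterial control probe sets, 27 per array, gave a background, and the highest of them read 4.32 to 4.92 depending on the array. Of 8 AHR target genes the 3 that were above the highest control on every array were Cyp1b1, Scin and Tiparp. Cyp1b1, a monooxygenase induced by AHR ligands, was above dioxane by 3.62 for thymocytes, by 1.24 between the emigrant arrays numbered 1 and by 4.23 between those numbered 2. Scin, an actin-severing protein, was above by 3.93, 1.85 and 2.02, and Tiparp, an AHR-induced ADP-ribosyltransferase, by 3.06, -0.01 and 3.50. The classical target Cyp1a1 was above the highest control on 2 arrays, TCDD thymocytes (7.88) and TCDD emigrants numbered 2 (5.98). The emigrant arrays numbered 1 also stood apart in myeloid and erythroid markers, given below.

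H2-Aa encodes the alpha chain of I-A, the class II molecule that C57BL/6 mice carry on the cell surface. It read 8.08 on the thymocyte dioxane array and 10.25 on the thymocyte TCDD array. In emigrants it read 10.24 and 9.08 with dioxane and 10.76 and 10.13 with TCDD. The thymocyte dioxane array was the low one, and the emigrant dioxane array numbered 1 reached the level of the lowest TCDD arrays. In the pairs of arrays, TCDD minus dioxane came to 2.18 for thymocytes, 0.52 for the emigrants numbered 1 and 1.06 for those numbered 2. A second, dimmer H2-Aa probe set was also higher with TCDD in all 3 pairs, by 0.96, 1.27 and 0.80.

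H2-Ab1, the beta chain that pairs with H2-Aa, gave the same order of arrays at the extremes. It read 5.67 with dioxane and 7.05 with TCDD in thymocytes, 7.33 and 6.39 in dioxane emigrants, and 7.80 and 7.12 in TCDD emigrants. The pair differences were 1.39, 0.47 and 0.72. The TCDD and dioxane arrays overlapped, since the dioxane emigrants numbered 1 were above 2 of the TCDD arrays. Its other probe sets did not repeat this. One differed by -0.16, -0.05 and 0.30, and the third, above the highest control on 1 array, by -0.07, -0.68 and 0.23.

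H2-Eb1, the beta chain of I-E, was the member for which every TCDD array lay above every dioxane array. It read 6.82, 8.16 and 8.08 with dioxane, in thymocytes and in emigrants 1 and 2. It read 8.36, 9.46 and 8.97 with TCDD in the same order. The margin between the groups was narrow, from 8.16 to 8.36, and 3.47% of all genes showed such a separation upward. The pair differences were 1.54, 1.30 and 0.89. Its partner, the I-E alpha chain H2-Ea, is known to be defective in the C57BL/6 haplotype, and its brightest probe set differed the other way in each pair, by -0.52, -0.33 and -0.20. H2-Ea read 6.87 and 7.39 in TCDD and dioxane thymocytes, 7.87 and 7.11 in dioxane emigrants and 7.53 and 6.91 in TCDD emigrants. Its other 2 probe sets were under the highest bacterial control on every array and did not repeat this, with mean pair differences of 0.0154 and -0.0005.

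Cd74, the invariant chain, read 5.71 with dioxane and 6.34 with TCDD in thymocytes. In emigrants it read 6.23 and 5.83 with dioxane against 7.21 and 6.18 with TCDD. The emigrant TCDD array numbered 1 was high, and the other 5 lay between 5.71 and 6.34. The pair differences were 0.63, 0.98 and 0.35, each above 0 and each under 2-fold.

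H2-DMa, the alpha chain of the peptide editor, was near background. It read 4.30 in dioxane thymocytes, under the highest bacterial control of that array, 4.72, and was above that limit on the other 5 arrays. With TCDD the thymocytes read 4.64, and emigrants read 4.79 and 4.84 with dioxane and 5.35 and 4.78 with TCDD. The groups overlapped, with pair differences of 0.34, 0.56 and -0.06.

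Ciita, the class II co-activator, read 3.72 to 3.82 on 5 arrays and 3.25 on the emigrant TCDD array numbered 1. It was under the highest bacterial control on 6 of 6 arrays, as was its second probe set, between 3.26 and 3.83. No fold is therefore given for it. Ciita is nevertheless kept in each count of members below.

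Ifi30, the lysosomal thiol reductase that unfolds antigens for class II loading, was the member with the largest TCDD difference in emigrants. It read 6.10 with dioxane and 7.22 with TCDD in thymocytes, 7.66 and 7.29 in dioxane emigrants, and 9.19 and 9.07 in TCDD emigrants. Both TCDD emigrant arrays lay above all other arrays, while TCDD thymocytes stayed under both dioxane emigrant arrays. The pair differences were 1.12, 1.53 and 1.77, so Ifi30 was at least 2-fold higher in every pair. Of all genes, 0.178% were (22 genes), and Ifi30 was 1 of them.

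Ctss, cathepsin S, the protease that trims the invariant chain, followed the cell source more than the treatment. Thymocytes read 9.58 with dioxane and 10.61 with TCDD. Emigrants read 12.31 and 11.57 with dioxane and 12.35 and 12.28 with TCDD, so every emigrant array was above every thymocyte array. The pair differences were 1.02, 0.03 and 0.71.

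**Figure D1:**
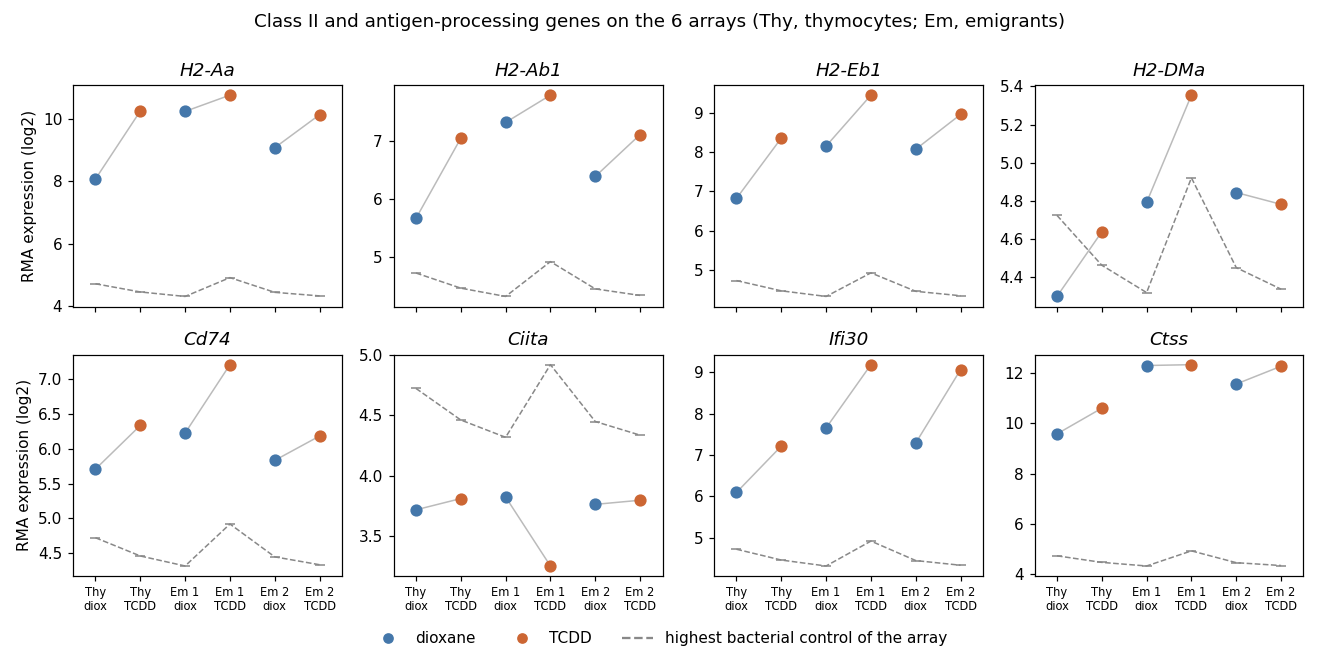
Level of each of the 8 genes (log2 RMA value, vertical axis) on each of the 6 arrays, 1 point per array, beside the highest bacterial control of that array. H2-Aa spans 8.08 to 10.76 and Ctss 9.58 to 12.35, Ciita lies under the control on every array, and H2-DMa lies close to it.

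Within single pairs, where 1 array stood for each treatment and no test is possible, TCDD was above dioxane for 8, 7 and 7 of the 8 genes in thymocytes, emigrants 1 and emigrants 2. The counts in thymocytes and in emigrants 2 include Ciita, which was under background. At least 2-fold higher were 5 members in thymocytes, 2 in emigrants 1 and 2 in emigrants 2. Over all genes those shares were 2.83%, 3.66% and 3.43%. The 5 in thymocytes, by their brightest probe sets, were H2-Aa, H2-Ab1, H2-Eb1, Ifi30 and Ctss. In emigrants 1 they were H2-Eb1 and Ifi30, and in emigrants 2 H2-Aa and Ifi30. The median member difference was 1.07, 0.54 and 0.72, beside medians over all genes of 0.01, -0.02 and -0.02. Above dioxane in all 3 pairs were 6 of the 8 members, all but H2-DMa and Ciita, and 15.4% of all genes. The emigrant arrays were matched by number, which the labels do not give as pairs, and this count depends on it. Dioxane emigrants 1 read above TCDD emigrants 2 for H2-Aa (10.24 and 10.13), H2-Ab1 (7.33 and 7.12), Cd74 (6.23 and 6.18) and Ctss (12.31 and 12.28). Matched the other way, H2-Eb1 and Ifi30 alone of the members stay above dioxane throughout. The share of all genes was not computed for that matching. By the brightest probe sets, the thymocyte pair held the largest difference for the 3 class II chains and Ctss, and the smallest for Ifi30. The second H2-Aa probe set differed most in emigrants 1, by 1.27, and the second H2-Ab1 probe set was lowest in thymocytes, at -0.16.

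**Figure D2:**
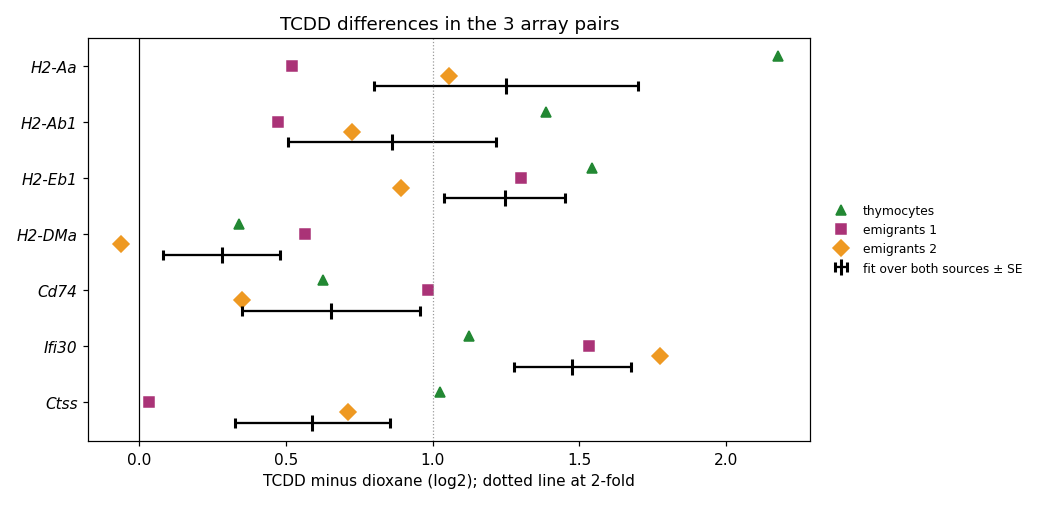
TCDD minus dioxane (log2, horizontal axis) for 7 genes in each of the 3 array pairs, with the estimate of the fit over both sources and its standard error as a bar beneath the points. Ciita is not drawn because it was under background. Ifi30 lies at 1.12 to 1.77 in the 3 pairs, past the dotted 2-fold line, while H2-Aa spreads from 0.52 to 2.18.

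TCDD was compared with dioxane over both sources with limma, with cell source in the model (3 arrays each, 3 residual degrees of freedom). The estimate for Ifi30 was 1.48 ± 0.20 (SE) on the log2 scale, with group means of 8.49 and 7.02 and an adjusted p of 0.742. For H2-Eb1 it was 1.24 ± 0.21, from 7.69 to 8.93, with the same adjusted p. H2-Aa differed by 1.25 ± 0.45, H2-Ab1 by 0.86 ± 0.35, Cd74 by 0.65 ± 0.30 and Ctss by 0.59 ± 0.26, with adjusted p-values of 0.903, 0.932, 0.986 and 0.978. H2-DMa differed by 0.28 ± 0.20, with an adjusted p of 0.999. No member passed the threshold of 0.05, nor did any of the 12393 genes (0%), the smallest adjusted p being 0.483. At an unadjusted p under 0.05 in limma there were 659 genes (333 higher with TCDD, 326 lower), or 5.32%, and 3 members: Ifi30, H2-Eb1 and H2-Aa. By p, Ifi30 ranked 5 and H2-Eb1 ranked 16 of all genes. The estimate was above 0 for 7 of 8 members, with a median of 0.76, while 47.2% of all genes were above 0 with a median of -0.02. The gap between 3′ and 5′ actin control probe sets, a sign of RNA or amplification quality, was higher with TCDD in each pair: it was 4.15, 3.77 and 3.36 on the TCDD arrays of thymocytes, emigrants 1 and emigrants 2, and 3.48, 3.06 and 3.01 on their dioxane arrays. The same gap for Gapdh was 5.86, 5.60 and 4.75 on the TCDD arrays and 6.10, 4.75 and 4.69 on the dioxane arrays, so it was not higher with TCDD in thymocytes. Their part in the TCDD differences was not tested.

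In emigrants alone (2 arrays against 2), limma gave 1.65 ± 0.25 for Ifi30 and 1.10 ± 0.28 for H2-Eb1. H2-Aa gave 0.79 ± 0.49, Cd74 0.67 ± 0.42, H2-Ab1 0.60 ± 0.44, Ctss 0.37 ± 0.33 and H2-DMa 0.25 ± 0.29. The adjusted p was 1 for every member and no gene passed (0%), with 255 genes, or 2.06%, at an unadjusted p under 0.05 (154 higher, 101 lower). Ifi30 and H2-Eb1 were among the 255. The other members had standard errors of 0.29 to 0.49, and 2 arrays a group did not resolve differences of their size. Single arrays decided several of them. Without dioxane emigrants 2 the estimate was 0.21 for H2-Aa, 0.13 for H2-Ab1 and 0.0029 for Ctss, and without dioxane emigrants 1 it was 1.37, 1.07 and 0.74. Without TCDD emigrants 1 it was 0.15 for Cd74, 0.48 for H2-Aa, 0.26 for H2-Ab1 and -0.036 for H2-DMa. Without TCDD emigrants 2 it was 1.18 for Cd74, 0.94 for H2-Ab1 and 0.54 for H2-DMa.

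Emigrants were then compared with thymocytes, with treatment in the model (4 arrays against 2). Ctss was 2.03 ± 0.28 higher in emigrants, with means of 12.13 and 10.10, and Ifi30 was 1.65 ± 0.21 higher, with means of 8.30 and 6.66. H2-Eb1 was higher by 1.08 ± 0.22, H2-Aa by 0.89 ± 0.48, H2-Ab1 by 0.80 ± 0.38, H2-DMa by 0.48 ± 0.21 and Cd74 by 0.34 ± 0.32. In limma the adjusted p was 0.32 for Ctss and Ifi30, 0.393 for H2-Eb1 and between 0.739 and 0.972 for the other members above background. No gene was called (0%), the smallest adjusted p was 0.165, and 880 genes, or 7.1%, had an unadjusted p under 0.05 (397 higher, 483 lower in emigrants). Of the 8 members, 7 were above 0 with a median of 0.84, beside 44% of all genes and a median of -0.04. With both emigrant arrays numbered 2 left out, 225 genes passed, among them Ifi30 (1.77, adjusted p = 0.0395) and Ctss (2.23, adjusted p = 0.0422). With the dioxane emigrant array numbered 2 alone left out, 7 genes passed and no member did.

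The single arrays show which source differences were even. Against dioxane thymocytes, dioxane emigrants 1 and 2 were higher by 2.73 and 1.99 for Ctss, 1.56 and 1.20 for Ifi30, and 1.34 and 1.26 for H2-Eb1. For H2-Aa they were higher by 2.16 and 1.00, and for H2-Ab1 by 1.66 and 0.73. Under TCDD the emigrants were 1.74 and 1.67 above thymocytes for Ctss and 1.97 and 1.85 for Ifi30. For H2-Eb1 the same differences were 1.10 and 0.61, and for H2-Ab1 0.75 and 0.06. For H2-Aa they were 0.51 and -0.12, and for Cd74 0.87 and -0.15. Each emigrant array was thus above the thymocyte array of its treatment for Ctss, Ifi30, H2-Eb1 and H2-Ab1, by as little as 0.06 for H2-Ab1. H2-Aa and Cd74 were lower on TCDD emigrants 2 than on TCDD thymocytes. For 7 of the 8 genes the lowest array was dioxane thymocytes and the highest was TCDD emigrants numbered 1, an order that 2.64% of all genes had.

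Whether the TCDD difference itself differed between emigrants and thymocytes was tested with the interaction term in limma. The estimate, emigrants minus thymocytes, was -1.39 ± 0.84 for H2-Aa, -0.79 ± 0.76 for H2-Ab1, -0.65 ± 0.57 for Ctss and -0.45 ± 0.48 for H2-Eb1. It was 0.53 ± 0.44 for Ifi30, 0.04 ± 0.73 for Cd74 and -0.09 ± 0.50 for H2-DMa. Each adjusted p was 1, no gene passed (0%), and 97 genes, or 0.783%, but no member, had an unadjusted p under 0.05. With 1 thymocyte array per treatment, assumed to vary like the emigrant arrays, a median standard error of 0.50 over all genes limited this test.

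Other genes of the pathway were taken from lists by role, in which no gene was called in any of these comparisons. Of 13 endosomal proteases and protease inhibitors, 11 were above 0 with TCDD over both sources, with a median of 0.72. Compared with dioxane, 7 were higher in all 3 pairs and 1, Ctse, was lower in all 3, and the pair medians were 0.24, 0.55 and 1.28. Cst3, cystatin C, an inhibitor of cysteine cathepsins, differed by 1.05 ± 0.23, and Cstb, cystatin B, by 1.22 ± 0.29. Ctsa, the protective carboxypeptidase of the lysosome, differed by 0.88 ± 0.21 and Ctsz, cathepsin Z, by 1.06 ± 0.39. Lgmn, the asparagine endopeptidase that starts antigen and invariant chain cleavage, differed by 1.00 ± 0.54. In the thymocyte pair these 5 genes differed by 0.44, 0.40, 0.47, 0.07 and 0.11 in that order, Lgmn being under the highest control on both arrays. In the emigrants numbered 2 they differed by 1.31, 1.52, 1.05, 1.63 and 2.36. At least 2-fold higher in thymocytes were 3 of the 13: Cst7, a cystatin of leukocytes, by 1.58, Ctsc, the dipeptidase that activates granule proteases, by 1.09 and Ctsl, cathepsin L, by 1.08. Emigrants were above thymocytes for 12 of the 13, with a median of 1.57.

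Of 3 measured class II partner genes, H2-Ea is given above. H2-Oa, the alpha chain of the H2-O inhibitor of H2-DM, was 1.07 higher with TCDD in thymocytes and differed by -0.02 and 0.17 in emigrants 1 and 2. H2-DMb2, a beta chain of H2-DM, read between 4.98 and 5.83. Of 13 measured transcription factors and co-factors of class II genes, 5 were above 0 with TCDD, with a median of -0.10. Nfyb, a subunit of the NF-Y complex known to bind Y boxes, differed by -0.97, -1.73 and -1.34 in the 3 pairs. Its fitted difference was -1.35 ± 0.20 (limma adjusted p = 0.742), and its second probe set gave a mean pair difference of -0.03. The other NF-Y subunits varied in direction, Nfya by -1.80, 0.62 and -0.43 and Nfyc by -0.29, 0.12 and -0.30. Irf8, an interferon regulatory factor of myeloid and dendritic cells, differed by -0.04, 1.47 and 0.55. Of 6 measured genes of the interferon gamma axis, a known inducer of Ciita, 4 were above 0, with a median of 0.05. Ifng, the cytokine itself, differed by 0.45 in thymocytes and by -0.84 and -1.88 in emigrants 1 and 2, where TCDD emigrants 2 were under the highest control. Of 6 names listed for co-stimulation and class II turnover, 4 were measured, and 3 of these were above 0, with a median of 0.32. Of the 4, Cd83 was above the highest control on 6 arrays, Cd86 on 3, Cd80 on 1 and Cd40 on 0.

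Markers of other cell types were read beside the class II genes. In these pooled bulk samples, fewer cells of a type and less RNA per cell cannot be told apart. The summed level of a list is the log2 of its summed linear values. For 14 macrophage and monocyte markers it was 9.42 and 9.51 in dioxane and TCDD thymocytes, 11.38 to 13.75 in dioxane emigrants and 13.00 to 13.95 in TCDD emigrants. Over both sources 13 of the 14 were above 0 with TCDD, and 14 of 14 were above 0 in emigrants against thymocytes, while Itgam was under the highest control on every array. In the thymocyte pair 8 of the 14 were above 0, from -0.46 for Lyz2, lysozyme, to 0.59 for Mpeg1, a macrophage perforin-like protein, with a median of 0.03. Of the 14, 5 (Mrc1, Apoe, Itgam, Aif1 and Fcgr1) were not above the highest control on both thymocyte arrays. Csf1r, the macrophage growth factor receptor, read 7.54 with dioxane and 7.57 with TCDD there. The pair medians in emigrants 1 and 2 were 0.11 and 1.74. For 9 measured neutrophil markers the sums were 8.87 and 8.71 in dioxane and TCDD thymocytes, 9.82 to 13.17 in dioxane emigrants and 11.54 to 13.91 in TCDD emigrants, and 9 of 9 were above 0 with TCDD. In both treatments the higher emigrant sum was on the array numbered 1. The part of macrophages or neutrophils in the class II values, in thymocytes or emigrants, was not tested.

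For 10 measured dendritic cell markers the summed level was 8.91 in dioxane and 9.92 in TCDD thymocytes, and it lay between 8.91 and 9.38 in emigrants. Of the 10, 7 were above 0 with TCDD over both sources, with a median of 0.11. Xcr1 was under the highest control on every array. Itgae, an integrin chain that dendritic and T cells both carry, read 7.08 with dioxane and 9.18 with TCDD in thymocytes. Without Itgae, left out after its values were seen, the sum was 8.44 and 8.61 there. Itgax, the CD11c integrin chain, differed by -0.16 and Flt3, a growth factor receptor of dendritic progenitors, by -0.01 in that pair. Fscn1, the actin-bundling protein fascin, differed by 0.28 in its brightest probe set. A second Fscn1 probe set read 5.63 with dioxane and 8.06 with TCDD in thymocytes, 4.09 and 4.04 in dioxane emigrants, both under the highest control, and 5.18 and 7.30 in TCDD emigrants. For 10 measured B-cell markers the sum was 8.06 and 8.12 in dioxane and TCDD thymocytes and 8.06 to 8.42 in emigrants, and Cd79a, Ebf1 and Vpreb1 were under the highest control on every array. For 11 thymic epithelial markers it was 8.53 and 8.81 in thymocytes and 7.96 to 8.19 in emigrants, with 4 of the 11, Foxn1 among them, under that control on every array. The 6 measured erythroid markers summed to 7.80 and 9.91 in dioxane and TCDD thymocytes. In emigrants they summed to 12.21 and 11.60 on the dioxane and TCDD arrays numbered 1 and to 8.31 and 9.70 on those numbered 2. Most of the thymocyte difference in that sum was Car2, a carbonic anhydrase, at 5.76 and 9.65, while Alas2, the erythroid haem synthesis enzyme, read 4.74 and 4.63. A list of 12 T-cell genes summed to 13.39 and 11.98 in dioxane and TCDD thymocytes. It summed to 9.70 and 12.95 in dioxane emigrants and to 9.65 and 11.17 in TCDD emigrants. The list includes Cd4 and Cd8a, the markers the cells were selected against, so its sum cannot check the DN label. By its brightest probe set Cd4 read between 4.93 and 5.19 and was above the highest control on 6 arrays. The margin was small on TCDD emigrants 1, at 4.98 against 4.92. A second Cd4 probe set read 3.46 to 4.04, under that control on every array. Cd8a was above that control on 4 arrays by its brightest probe set, with differences in the 3 pairs of 0.23, -0.07 and -0.89. A second Cd8a probe set read 4.05 to 4.41 and was under it on every array. Dntt, which weighs most in the dioxane thymocyte sum, read 12.36 there and 9.10 in TCDD thymocytes. Its difference, -3.25, was the widest of the 12 genes in that pair. Rag1 differed by -2.70, Cd3d by -1.04, Cd3e by -0.44, Ptcra by -0.03 and Cd3g by 0.47, and 2 of the 12 were above 0. The part of dendritic, erythroid or epithelial cells, and of a lower T-cell sum, in the thymocyte difference was not tested.

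**Figure D3:**
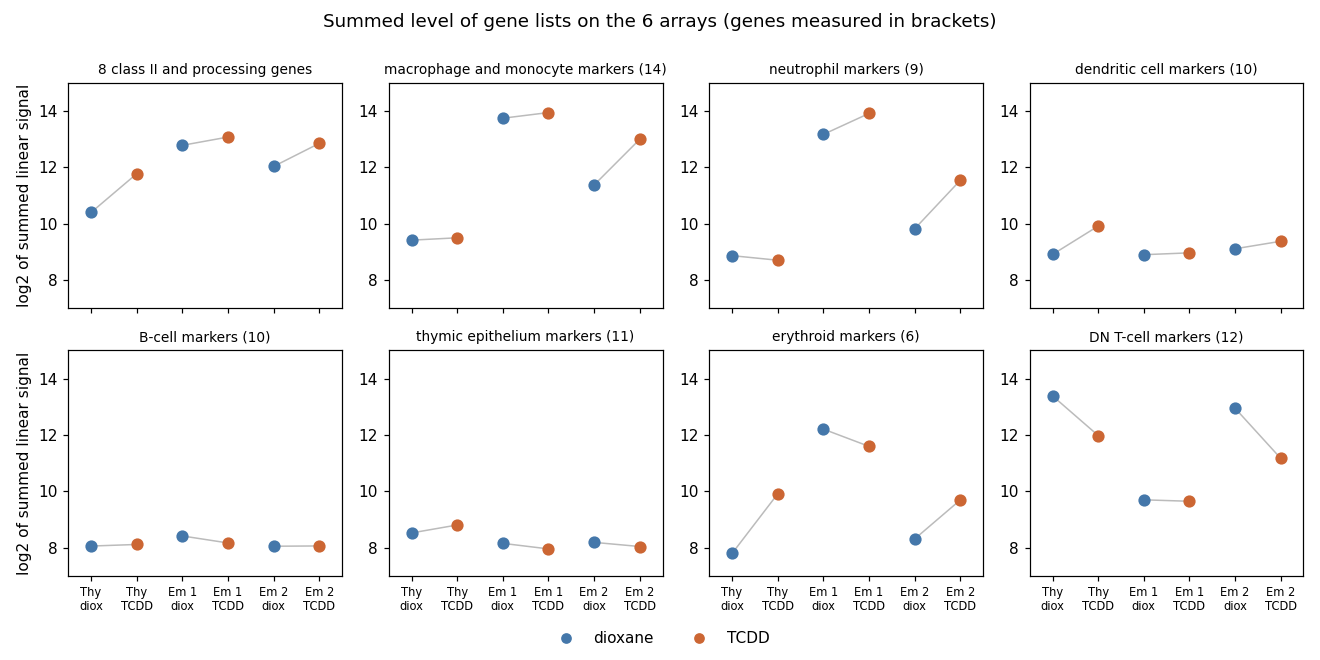
Summed level of the 8 class II and processing genes and of the marker lists (log2 of summed linear RMA values) on each of the 6 arrays. The 8 genes go from 10.40 in dioxane thymocytes to 13.08 on TCDD emigrant array 1. The macrophage sum goes from 9.42 to 13.95 on the same arrays. TCDD thymocytes are at 9.51 for macrophages and 11.78 for the 8 genes. Ctss, the brightest of the 8 on every array, weighs most in their sum. Alone it read 9.58 in dioxane thymocytes and 12.35 on TCDD emigrant array 1.

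The genes with profiles nearest to the class II chains, H2-DMa and Cd74 were ranked by the root-mean-square difference from their mean centred profile over the 6 arrays, among 9387 genes, whose median difference was 0.70. Of the members, H2-Ab1 lay nearest at 0.14, then Cd74 at 0.27, H2-Eb1 at 0.29, H2-Aa at 0.35 and H2-DMa at 0.37, all of which entered that mean. Ifi30 and Ctss, which did not, lay at 0.61 and 0.66. Outside the members, Sorl1, a sorting receptor of the endosome, lay nearest at 0.11. Sorl1 read 5.78 with dioxane and 6.90 with TCDD in thymocytes, 6.99 and 6.33 in dioxane emigrants, and 7.94 and 7.15 in TCDD emigrants. The next were Marveld1 at 0.19, then Ffar2, a receptor for short-chain fatty acids, Sgpp1, a sphingosine-1-phosphate phosphatase, and Htra2, a mitochondrial protease, each at 0.21. Napsa, an aspartic protease, lay at 0.22 and was under the highest control in dioxane thymocytes. With TCDD it was higher by 0.78 in emigrants 1 and by 0.79 in emigrants 2. Psenen, Hagh, Grina and Nipsnap3b lay at 0.23 to 0.24. These distances rest on 6 arrays and are a description, without a test.

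**Figure D4:**
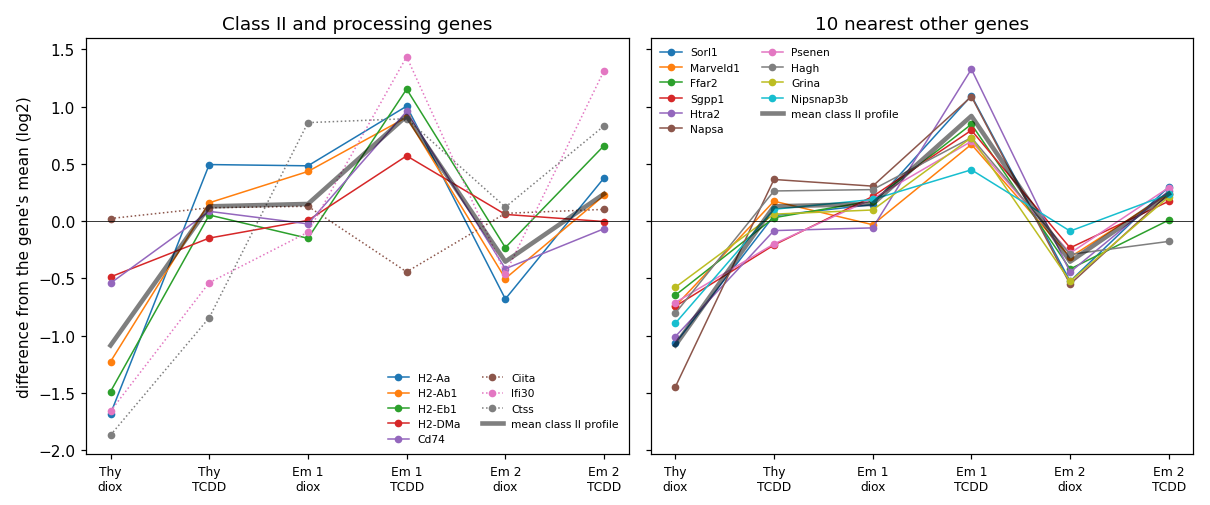
Centred log2 level (vertical axis) of the class II genes and of their nearest other genes across the 6 arrays (horizontal axis). The mean class II profile is lowest in dioxane thymocytes, -1.08, and highest on TCDD emigrant array 1, 0.92; lines join arrays that have no order.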

How the data were processed

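The values are log2 intensities that the authors deposited after RMA, per the submitters' processing notes, and the design text names the Bioconductor affy package, with no version in the sources used here. RMA values carry no detection call, and differences of dim genes are compressed. RNA was amplified before hybridisation, per the labels' protocols. The number of arrays limits the precision.

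Of 22690 probe sets, 64 controls were left out; 691 annotated to several genes and 1555 to none were not tested. The other 20380 gave 12393 genes, each represented by its brightest probe set over the 6 arrays. Named were the 8 members, genes of the role and marker lists, and the 10 genes nearest in profile. Members and lists were chosen with earlier results of these data known. Models were fitted with limma 3.58.1 (lmFit, eBayes) in R 4.3.3, with Benjamini-Hochberg adjustment over all genes and calls at an adjusted p under 0.05. Scripts were tested on simulated data. Alternatives were quantile and cyclic loess normalisation, a filter on dim genes, an intensity trend, the mean of a gene's probe sets, each array left out, both emigrant arrays of a number left out, and a replicate block.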

Additional observations from a re-analysis of the deposited data

How the results depend on the processing

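With 6 arrays and 2 or 3 residual degrees of freedom, adjusted p-values could not separate members from the rest, and pairs without replicates had no test. Single-gene alternatives were run on the 7 members other than Ciita (H2-DMa was above background on 5 of 6 arrays). Of these alternatives, 342 counted as unchanged, 9 changed sign and 2 passed the threshold. Unchanged means the same direction and, where a p-value existed, the same side of the threshold. The count of 342 is no measure of stability, because part of it was fixed in advance. The dim-gene filter, the intensity trend and the replicate block cannot alter an estimate, only its p-value. For TCDD over both sources, leaving out either thymocyte array gave the emigrant estimate again. Size did not enter: H2-Ab1 over both sources counted as unchanged at 0.24, from 0.86 in the main fit. With both emigrant arrays of a number left out, the emigrant and interaction fits had no p-value, so only their direction was compared. For TCDD over both sources the estimate ranged over the 14 alternatives from 1.32 to 1.65 for Ifi30 (adjusted p 0.134 to 1), 1.10 to 1.43 for H2-Eb1 (0.151 to 1), 0.79 to 1.72 for H2-Aa (0.163 to 1) and 0.24 to 1.20 for H2-Ab1 (0.164 to 1). In emigrants over 12 alternatives it ranged from 0.21 to 1.37 for H2-Aa, 0.13 to 1.07 for H2-Ab1, 0.15 to 1.18 for Cd74 and 0.0029 to 0.74 for Ctss.

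For emigrants against thymocytes, leaving out each array gave 0 to 7 genes called, and leaving out both emigrants numbered 2 gave 225, with 2 members. Leaving out both numbered 1 gave -0.013 for Cd74 there and -0.062 for H2-DMa in emigrants, whose leave-one-out range was -0.036 to 0.54. The interaction of Cd74 was -0.0084 under quantile normalisation, -0.28 without both numbered 1, and -0.47 to 0.55 with each array left out. That of H2-DMa was 0.22 without both numbered 2 and -0.37 to 0.20 with each array left out. The median of the members' pair differences, 0.72, was 1.00 with dim genes (below the median) left out, which drops Ciita and H2-DMa. With the mean of a gene's probe sets, 4 members in place of 5 were at least 2-fold higher in thymocytes, and 1 in emigrants 2. The cause was not tested where none is given.

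Same-numbered emigrant arrays deviated together (correlation 0.56 across 12393 genes), but with 2 such pairs the numbers are not taken as pairing. With a replicate block, 0 genes were called in each comparison that could be fitted, and Ifi30 and H2-Eb1 over both sources had an adjusted p of 0.282. The block could not be fitted for emigrants against thymocytes.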

Other observations

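Probe sets annotated to several genes were not among the genes tested. One shared by H2-DMb1 and H2-DMb2, the beta chains of H2-DM, read 6.06 with dioxane and 5.95 with TCDD in thymocytes, 6.35 and 6.20 in dioxane emigrants, and 6.66 and 6.20 in TCDD emigrants. It was above the bacterial controls throughout and varied less across arrays than the class II chains. The other probe set shared by H2-DMb1 and H2-DMb2 read between 3.20 and 3.67, under the highest bacterial control on every array. A probe set shared by H2-Ob and a second gene read between 4.57 and 4.99.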
